A study of Mus musculus with 10 samples.

Results

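The transcriptome described here is that of the mouse forelimb bud in the 5 libraries titled Control1 to Control5 of a series of 10. The series deleted Cxxc1, which encodes a CpG-binding subunit of histone methyltransferase complexes, in limb mesenchyme, and its other 5 libraries were not used. Each library came from the labelled E11.5-E12 forelimb bud of an embryo in litters A to D, staged by counting somites, the paired blocks of trunk mesoderm that are added one after another. Control 1 (51 somites, litter A) carried Prx1Cre and 1 floxed Cxxc1 allele, the genotype written Prx1Cre_+-Cxxc1fl_wt. Control 2 (51 somites, litter A) and control 4 (49 somites, litter C) were CreWT-Cxxc1fl_WT, without Cre and with 1 floxed allele. Control 3 (50 somites, litter B) was CreWT-Cxxc1fl_fl, without Cre and with both alleles floxed. Control 5 (50 somites, litter D) was labelled Prx1Cre?-Cxxc1fl_fl, so its Cre status is not settled by its label. If it carried Cre, both of its floxed alleles would be open to deletion in limb mesenchyme, and it is a control by its title only. All controls therefore carried at least 1 floxed allele, and none was wild type at Cxxc1. Prx1Cre is driven by a Prrx1 enhancer active in limb mesenchyme and not in the ectoderm or the blood and vessel cells. Controls 1 and 2 shared litter and somite number and differed in genotype. Controls 3, 4 and 5 were each the only embryo of their litter, so what sets one of them apart cannot be told apart from its litter. Whether a library held 1 limb or both limbs of an embryo is not stated in the labels.

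A limb bud is a pouch of mesenchyme covered by ectoderm. The thickened ectoderm at its tip, the apical ectodermal ridge, secretes FGF proteins that keep the distal mesenchyme growing, and a posterior patch of mesenchyme secretes Sonic hedgehog, which sets digit number and identity. Hox genes of the A and D clusters mark positions from shoulder to digit, the MEIS and IRX transcription factors mark the proximal bud, and SOX9 marks the mesenchyme that condenses into cartilage. Muscle precursors migrate in from the somites, and vessels, nerves with their Schwann cells, macrophages and circulating red cells complete the tissue. Levels of different genes are given as TPM, a transcript abundance from counts per base of merged exon, scaled to the same total in each library. Differences between libraries for 1 gene are given as CPM, counts scaled to a common library total.

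The median CpG content of promoters rose with the level of the genes in the bud, which is shown here because the series concerns a protein that binds CpG. RefSeq promoters (build GRCm38.p6) were matched to 16386 of 21684 nuclear protein-coding genes, and CG pairs were counted in the 250 bases before the start. The median was 2 CG pairs for genes under 0.1 TPM, 5 from 0.1 to 1 TPM, 13 from 1 to 10 TPM, 17 from 10 to 100 TPM and 18 at 100 TPM or more. The letters TATAAA, searched on both strands, stood in 11.8% of all these windows, in 26.1% of those of genes under 0.1 TPM, 11.8% from 0.1 to 1 TPM, 7.32% from 1 to 10 TPM, 5.05% from 10 to 100 TPM and 7.58% at 100 TPM or more. The lists of red cell genes (median 2 CG pairs, 13 genes matched), platelet and mast cell genes (2, 9 matched), macrophage genes (4, 12 matched) and muscle genes (5, 15 matched) lay near the genes under 1 TPM. Limb mesenchyme regulators (16, 39 matched), WNT ligands (28, 15 matched) and genes of the SET1 and MLL complexes (24, 9 matched) had more CG pairs. Single lists did not all follow the order by level. Neuronal genes had a median of 21 pairs (9 matched) at a list median of 0.453 TPM and WNT ligands 28 at 2.38 TPM, while red cell genes had 2 at 36.7 TPM. The next 5 windows, with CG in capitals and read from 5′ to 3′, span that range among genes named below. They hold 31 pairs in Hoxd13, 18 in Twist1, 2 in the basal keratin gene Krt5, 0 in the collagen gene Col3a1 and 1 in the embryonic globin gene Hbb-y, and TATAAA stands in the first 2 and in Col3a1. Col3a1 and Hbb-y show that a window nearly free of CG also occurs at a high level, at 147 and 5797 TPM.
Hoxd13 (chr2:74667975-74668224, plus strand): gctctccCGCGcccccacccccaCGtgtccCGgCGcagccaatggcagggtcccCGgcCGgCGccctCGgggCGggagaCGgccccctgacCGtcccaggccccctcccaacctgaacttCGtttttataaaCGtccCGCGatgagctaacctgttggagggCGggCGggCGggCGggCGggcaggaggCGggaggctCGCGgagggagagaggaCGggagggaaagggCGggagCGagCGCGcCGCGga
Twist1 (chr12:33957421-33957670, plus strand): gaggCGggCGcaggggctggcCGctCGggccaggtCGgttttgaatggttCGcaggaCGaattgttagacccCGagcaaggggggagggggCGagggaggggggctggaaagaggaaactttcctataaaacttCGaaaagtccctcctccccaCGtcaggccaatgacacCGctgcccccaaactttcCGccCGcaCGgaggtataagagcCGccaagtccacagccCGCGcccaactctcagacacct
Krt5 (chr15:101712906-101713155, minus strand): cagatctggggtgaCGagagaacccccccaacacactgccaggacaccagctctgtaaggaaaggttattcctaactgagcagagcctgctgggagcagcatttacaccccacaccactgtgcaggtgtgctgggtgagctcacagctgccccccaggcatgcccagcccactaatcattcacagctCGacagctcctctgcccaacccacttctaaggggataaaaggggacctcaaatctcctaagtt
Col3a1 (chr1:45311288-45311537, plus strand): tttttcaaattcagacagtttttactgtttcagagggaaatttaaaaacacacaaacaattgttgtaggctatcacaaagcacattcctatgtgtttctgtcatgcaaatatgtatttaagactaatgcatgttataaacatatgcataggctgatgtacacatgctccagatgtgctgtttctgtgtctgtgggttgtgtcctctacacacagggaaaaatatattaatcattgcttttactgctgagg
Hbb-y (chr7:103853208-103853457, minus strand): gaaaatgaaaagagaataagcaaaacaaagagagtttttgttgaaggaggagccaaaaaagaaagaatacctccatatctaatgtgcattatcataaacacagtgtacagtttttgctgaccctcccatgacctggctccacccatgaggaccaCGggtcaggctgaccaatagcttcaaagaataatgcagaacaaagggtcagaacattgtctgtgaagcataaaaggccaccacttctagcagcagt

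The libraries held 44170158 to 49001179 counts, so that 3 counts, the limit that a count of 0 allows, stand for 0.0600 to 0.0688 CPM (counting error only). Mitochondrial genes took 1.79% to 2.36% of the counts. Ribosomal RNA entries took 1.41% to 1.68% in controls 1, 3, 4 and 5 and 3.69% in control 2, which stands apart in this. A check for a library deposited more than once found none, with chi-square over its degrees of freedom at 18.3 to 49.6. This says only that the 10 pairs differ by more than counting noise. Controls 1 and 2, of 1 litter and 1 somite number, had the largest such ratio (49.6) and also the smallest median difference per gene, 0.0901 on the log2 scale, against 0.106 to 0.145 for the other pairs. Xist was at 4054 CPM in control 1 and at 0.350 to 1.44 CPM in the others. The forelimb label was met by Tbx5, the T-box factor of the forelimb, at 105 TPM against 8.77 TPM for Tbx4 and 1.23 TPM for Pitx1, both hindlimb factors.

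The bud expressed 12401 of 21684 nuclear protein-coding genes (57.2%) at 1 TPM or more in all 5 libraries, with a median of 18.8 TPM, and 3041 had no count in any library. Translation genes led. Eef1a1, the elongation factor that brings tRNA to the ribosome, was the highest nuclear protein-coding gene, at 9956, 9341, 10161, 9664 and 10386 TPM in controls 1 to 5. It was followed by Hbb-y (5797 TPM), Ptma (4884 TPM) and Rps3a1 (3671 TPM), and 35 of the 100 highest were ribosomal protein genes. The heat shock protein gene Hsp90ab1 (2681 TPM) and the tubulin gene Tuba1b (2579 TPM) also stood among the first 10. The 100 highest of these genes held 24.3 ± 0.390% (SD, n = 5) of their TPM and the 1000 highest 55.2 ± 0.661%. Over all annotated entries the 100 highest held 35.2 ± 1.90%, a share that rests in part on short and repeated entries. The highest of all was the ribosomal RNA entry CT010467.1, at 15279, 38799.7, 18862, 17109 and 16195 TPM in controls 1 to 5, high in control 2. Entries under 200 bases held 7.75% of all TPM and processed pseudogenes 15.3%, and reads of near-identical copies cannot be told apart there. Mitochondrial transcripts were led by mt-Co1 (11032 ± 956 TPM), a cytochrome oxidase subunit, and mt-Cytb (8114 ± 649.6 TPM), and mt-Co1 was highest in control 1 and lowest in control 3.

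Some imprinted genes stood close behind translation. H19, a long noncoding RNA expressed from the maternal chromosome, was at 5969.8, 5742, 5753, 4740.4 and 5826 TPM in controls 1 to 5, the lowest in control 4. Igf2, the fetal insulin-like growth factor of the same imprinted region, was at 1469.9, 1545, 1701, 1373 and 1698 TPM, rank 37 among nuclear protein-coding genes. Of 22 imprinted genes, 8 had at least 100 TPM, among them Mest (980.1 TPM), Nnat (949 TPM), the cell cycle inhibitor gene Cdkn1c (670.1 TPM), the growth factor adaptor gene Grb10 (415 TPM), Peg10 (179 TPM) and Peg3 (136 TPM). Genes of dividing cells were high throughout. All 21 listed cell cycle genes had at least 10 TPM and 15 at least 100 TPM, with Cdk4 at 662 TPM, Pcna at 438 TPM, the topoisomerase gene Top2a at 300.2 TPM and Mki67 at 269, 246, 280.5, 257 and 261 TPM in controls 1 to 5. Mki67, a marker of dividing cells, had a spread between libraries beyond counting error of 1.38%, beside a median of 7.18% over genes at 5 CPM. Immediate early genes, which rise within minutes of a stimulus, were uneven in level: Jund (114 TPM, 52.6% of exon bases under genes of the other strand) and Ier2 (101 TPM) were high, while Fos (0.967 TPM), Egr1 (0.966 TPM) and Fosb (0.0991 TPM) were near or under 1 TPM.

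Regulators of limb mesenchyme were broadly expressed at moderate levels. Of 63 listed, 57 had 1 TPM or more in all 5 libraries, 43 had a mean of at least 10 TPM and 12 at least 100 TPM, with a list median of 26.4 TPM beside 18.8 TPM for all detected protein-coding genes. The highest was Id1, an inhibitor of helix-loop-helix factors that responds to BMP signals, at 332, 302, 336, 345 and 342 TPM in controls 1 to 5 (rank 246). Twist1, a helix-loop-helix factor needed for limb bud growth, was at 224, 223, 245, 266 and 271 TPM, highest in controls 4 and 5. Next came Id3 (212 TPM) and Hand2 (193 TPM), the posterior factor upstream of Sonic hedgehog, of whose exon bases 19.6% lie under genes on the other strand. Shox2, a homeobox gene of the proximal limb skeleton, was at 178, 210.04, 172, 167 and 231 TPM, highest in controls 2 and 5. Prrx2 (174 ± 25.8 TPM) and Prrx1 (137 ± 8.31 TPM), paired homeobox genes of limb mesenchyme, were in the same range, as were Tbx15 (155 TPM) and the MEIS partner gene Pbx2 (154 TPM). Prrx1, whose enhancer drives the Cre of this series, was even among the libraries, at 147, 132, 143, 135 and 127 TPM in controls 1 to 5. Tbx5 was at 96.9, 109, 118, 87.9 and 114 TPM, lowest in control 4. Dorsal identity was represented by Lmx1b, which specifies dorsal mesenchyme, at 69.1 ± 6.52 TPM, and anterior identity by Alx4 (18.9 TPM) and Gli3 (45.4 TPM). At the other end, Foxd1 had a mean of 0.0960 TPM and Tcf21, a factor of visceral mesenchyme, had no count in any library.

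**Figure D1:**
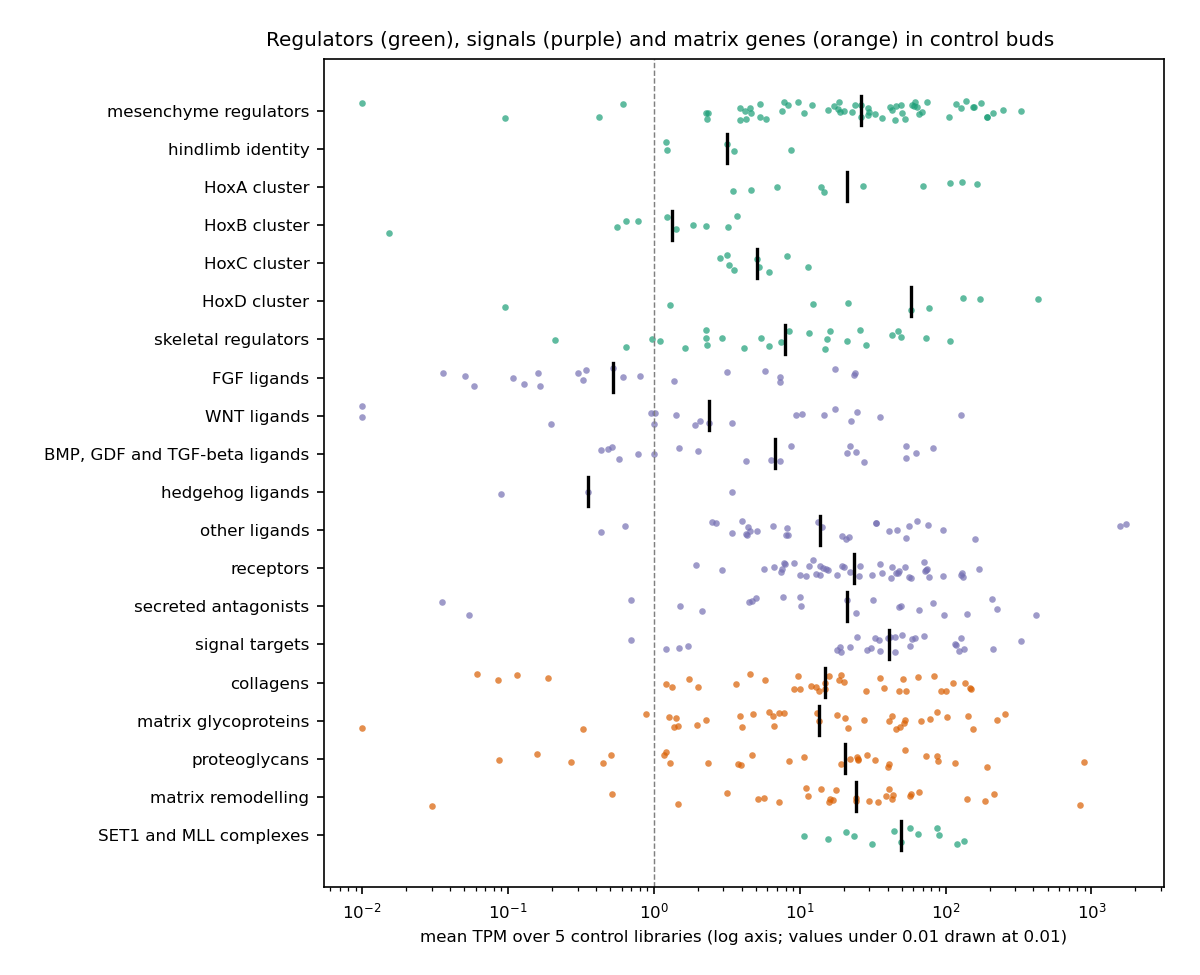
Mean TPM over the 5 control libraries (x axis, log scale) of every gene in the lists of regulators, signals and matrix genes (1 point per gene, 1 row per list), with a black bar at each list's median and a dashed line at 1 TPM. Medians run from 0.355 TPM for hedgehog ligands to 58.3 TPM for the HoxD cluster, and the 2 ligands far to the right are Mdk (1719.5 TPM) and Igf2 (1557 TPM).

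Hox levels differed by cluster, and in HoxD also largely by position. The summed level was 916, 882, 1016, 998 and 691 TPM for the 9 HoxD genes in controls 1 to 5, lowest in control 5. The 10 listed HoxA genes summed to 544 ± 31.4 TPM, the 9 HoxC genes to 48.9 ± 11.7 TPM and the 10 HoxB genes to 15.7 ± 6.61 TPM (SD, n = 5). Hoxd13, the most 5′ HoxD gene, which patterns the digits (chromosome 2, 74668310 to 74671599, GRCm38), was the highest Hox gene, at 415, 405, 486, 504 and 331 TPM in controls 1 to 5 (rank 178). Along HoxD the levels fell towards the 3′ end, from Hoxd12 (172 TPM), Hoxd11 (76.6 TPM), Hoxd10 (131 TPM) and Hoxd9 (58.3 TPM) to Hoxd8 (21.3 TPM), Hoxd4 (12.3 TPM), Hoxd3 (1.28 TPM) and Hoxd1 (0.0958 TPM). In TPM, Hoxd10 was out of order above Hoxd11, which rests on the exon lengths used. As CPM, Hoxd11 was above Hoxd10, at 91.8 against 62.7 in control 5. In the other libraries it was at 124.0 to 132.0 against 92.4 to 101.9 CPM. HoxA peaked at Hoxa10 (165 ± 10.2 TPM), Hoxa11 (130.4 ± 9.53 TPM) and Hoxa13 (108 ± 16.8 TPM), which mark the upper arm, forearm and hand. Opposite-strand genes cover 35% of the exon bases of Hoxa11 and 52.9% of those of Hoxb3, and since strand in the counting is not given here, reads of such pairs cannot be told apart. Hoxa10 was above Hoxa11 in all 5 libraries, while Hoxa11 and Hoxa13 lay within 1.5 times of each other in each. Below them were Hoxa9 (69.6 TPM), Hoxa5 (27.2 TPM), Hoxa6 (14.6 TPM), Hoxa7 (13.98 TPM), Hoxa3 (7.005 TPM), Hoxa2 (4.60 TPM) and Hoxa4 (3.49 TPM). In HoxC, Hoxc6 was highest (11.4 TPM), followed by Hoxc13 (8.23 TPM), Hoxc12 (6.17 TPM), Hoxc5 (5.24 TPM) and Hoxc4 (5.10 TPM). Hoxc10 (3.53 TPM), Hoxc9 (3.25 TPM), Hoxc11 (3.17 TPM) and Hoxc8 (2.83 TPM) were lower, Hoxc10 and Hoxc11 being genes of the hindlimb. No HoxB gene reached 10 TPM: Hoxb3 had 3.72, Hoxb2 3.23, Hoxb4 2.28, Hoxb9 1.86, Hoxb1 1.41, Hoxb7 1.23, Hoxb5 0.772, Hoxb8 0.643, Hoxb6 0.561 and Hoxb13 0.0153 TPM on average.

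**Figure D2:**
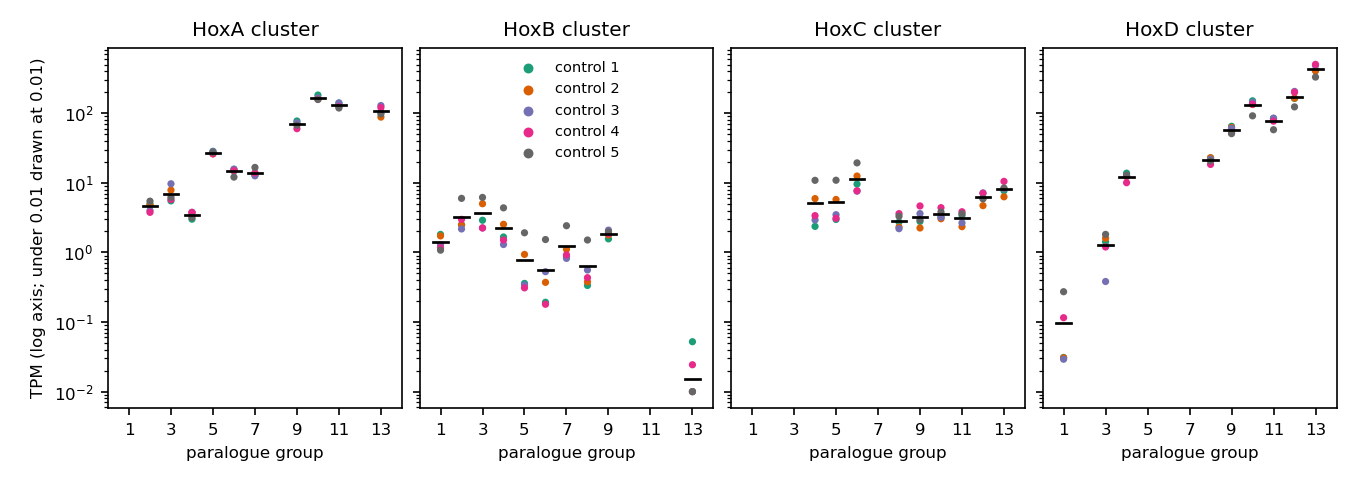
TPM (y axis, log scale) of each listed Hox gene by paralogue group (x axis) in the 4 clusters, with 1 coloured point per control library and a black bar at the mean of 5. Groups 9 to 13 of HoxA and HoxD reach 58.3 to 428 TPM, and control 5 lies above the others for most HoxB genes and for Hoxc4, Hoxc5 and Hoxc6.

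The skeleton was represented by its early regulators and hardly by later ones. Sox9, the master factor of cartilage, was at 75.3, 79.2, 105, 49.97 and 59.8 TPM in controls 1 to 5, highest in control 3 and lowest in control 4. Its partners Sox5 (8.42 ± 2.66 TPM) and Sox6 (7.40 ± 3.13 TPM) were much lower, and Scx, the tendon progenitor factor, was at 42.9 ± 4.76 TPM. Runx2 (2.92 TPM) and Sp7 (2.28 TPM), which drive bone formation, were low, while Cbfb, the partner of the RUNX proteins, was at 106 TPM. Gdf5, a BMP family ligand of future joints, was at 18.2, 14.8, 37.4, 24.98 and 10.03 TPM, with 40.3% of its exon bases under genes of the other strand. Nkx3-2, a repressor that acts with SOX9 in early cartilage, was at 4.74, 6.26, 5.17, 0.505 and 4.18 TPM and nearly absent in control 4.

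Cxxc1 itself, the gene the series deleted in its other group, was at 61.7, 61.5, 74.5, 66.5 and 59 TPM in controls 1 to 5 (rank 1946). As CPM the values were 90.1, 94.2, 104, 99.8 and 87.1. Control 1, with Prx1Cre and 1 floxed allele, lay between control 5 and controls 2 to 4, which have no Cre. These values lie close together, and a part of genotype in their order was not tested. All 13 listed genes of the SET1 and MLL complexes, which methylate histone H3 at lysine 4, had at least 10 TPM. The shared core subunits Dpy30 (134 TPM), Wdr5 (87.6 TPM), Rbbp5 (57.1 TPM) and Ash2l (49.8 TPM) exceeded every catalytic subunit, of which Setd1a had 44.1, Kmt2b 31.4, Kmt2a 23.5, Kmt2d 20.6, Setd1b 15.7 and Kmt2c 10.8 TPM. Hcfc1 (119 TPM) and the SET1 subunit gene Wdr82 (90.6 TPM) were also above every catalytic subunit.

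Among signals, the ligands that pattern the bud were low next to growth factors and matrix. Of 21 FGF ligands, 8 had at least 1 TPM in all 5 libraries and 3 at least 10 TPM. The ridge ligand Fgf8 was at 23.9, 14.3, 17.8, 36.6 and 25.9 TPM in controls 1 to 5, highest in control 4 and lowest in control 2. Fgf10, the mesenchymal ligand that signals to the ridge, was more even, at 18.01, 15.6, 18.8, 19.5 and 15.3 TPM, and Fgf18 was at 23.7 ± 4.02 TPM. Other ridge FGFs were lower, Fgf9 at 7.26, Fgf17 at 1.38 and Fgf4 at 0.344 TPM, and Fgf21 and Fgf22 had means of 0.0361 and 0.0505 TPM. Shh, the posterior signal, had 3.43, 3.23, 1.36, 5.67 and 3.45 TPM, lowest in control 3 and highest in control 4, with 28.3% of its exon bases under genes of the other strand. Ihh (0.355 TPM), the hedgehog of cartilage, and Dhh (0.0897 TPM) were lower still.

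WNT and BMP ligands covered a wide range. Wnt5a, a mesenchymal ligand that directs outgrowth, was at 127, 125, 149.6, 133 and 98.3 TPM in controls 1 to 5, lowest in control 5. The ectodermal ligands Wnt6 (35.6 ± 6.81 TPM), Wnt7b (24.8 ± 3.91 TPM), Wnt3 (10.4 ± 2.12 TPM), which maintains the ridge, and Wnt7a (9.47 ± 2.22 TPM), which gives dorsal identity, were each highest in control 4. Wnt11 (22.4 TPM), Wnt5b (17.3 TPM) and Wnt4 (14.6 TPM) lay between, and Wnt1 and Wnt8b, ligands of the nervous system, were at 0.00913 and 0.00956 TPM. Bmp4, which acts in ectoderm and mesenchyme, was at 76.7, 69.6, 72.1, 96.5 and 92.2 TPM, highest in controls 4 and 5. It was followed by Gdf11 (62.6 ± 5.40 TPM), the procollagen protease gene Bmp1 (53.9 ± 5.05 TPM), which is no BMP ligand, and Bmp7 (53.5 ± 3.88 TPM). Bmp2 (22.2 TPM), Tgfb2 (27.7 TPM) and Tgfb3 (24.4 TPM) lay near Gdf5, and Bmp5 had 8.70 TPM.

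Other ligands were led by Mdk, the heparin-binding growth factor midkine, at 1725, 1662, 1747, 1689 and 1775 TPM in controls 1 to 5 (rank 31), and its relative Ptn was at 159.996 TPM. Ephrin ligands Efnb1 (95.7 TPM) and Efna2 (75.2 TPM), Pdgfc (63.7 TPM), Vegfb (55.8 TPM), Pdgfa (53.8 TPM) and Vegfa (46.5 TPM) formed the next tier. Of 46 listed receptors, 45 had 1 TPM or more in all 5 libraries, with a median of 23.7 TPM, against 0.523 TPM for FGF ligands, 2.38 TPM for WNT ligands and 6.81 TPM for BMP, GDF and TGF-beta ligands. The hedgehog co-receptor Gas1 (169 ± 15.5 TPM) and the transducer Smo (128 ± 7.33 TPM) stood beside the WNT receptor Fzd2 (131 ± 13.3 TPM) and Pdgfra (129 ± 13.8 TPM), a receptor of mesenchyme. Bmpr1a (95.98 TPM), Epha4 (77.1 TPM), Fgfr1 (74.7 TPM), the main FGF receptor of mesenchyme, and Igf2r (73.7 TPM) followed.

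Secreted antagonists were led by binding proteins of insulin-like growth factors, Igfbp4 (417 ± 29.5 TPM), Igfbp5 (209 ± 25.97 TPM) and Igfbp2 (139.7 ± 17.8 TPM), and by Fstl1 (225 ± 25.1 TPM). WNT antagonists included Sfrp2 (97.7 TPM), Frzb (65.6 TPM) and Wif1 (49.2 TPM), and Nbl1, a BMP antagonist, was at 81.9 TPM. Grem1, the BMP antagonist that links the posterior signal to the ridge, was at 34.8, 27.5, 25.3, 37.3 and 32.9 TPM in controls 1 to 5. Nog, the BMP antagonist noggin, was at 4.71 TPM, and Sfrp4 and Sfrp5 were at 0.0543 and 0.0351 TPM. Of 30 genes used as pathway readouts, 26 had at least 10 TPM. The FGF targets Dusp6 (123 ± 12.3 TPM), Etv5 (58.4 ± 7.35 TPM), Spry2 (56.7 ± 4.62 TPM) and Etv4 (45.3 TPM) were well expressed. Msx1, a BMP responsive homeobox gene, was at 115, 94.9, 146, 162 and 115 TPM in controls 1 to 5, highest in control 4. The hedgehog targets Gli1 (35.2 ± 2.15 TPM) and Ptch1 (22.01 ± 1.89 TPM), the WNT targets Nkd2 (71.2 TPM) and Axin2 (50.5 TPM), and the Notch target Hes1 (61.2 TPM) had biological CVs, the spread between libraries beyond counting error, of 5.09% to 11.6%. Cyp26b1, which removes retinoic acid from the distal bud, was at 133 ± 13.98 TPM, and Aldh1a2, which makes it, at 46.4, 41.4, 70.3, 33.9 and 33.5 TPM, highest in control 3.

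Matrix genes were led by a proteoglycan and a collagen chaperone. Gpc3, a heparan sulphate proteoglycan of the cell surface, was the highest listed matrix gene, at 912, 891, 931, 826 and 918 TPM in controls 1 to 5 (rank 64), and Serpinh1, the collagen chaperone, was at 834 ± 36.8 TPM (rank 70). Microfibril genes Mfap2 (256 ± 23.9 TPM) and Mfap4 (223 ± 21.9 TPM), fibulin gene Fbln1 (153 TPM), fibronectin gene Fn1 (143 ± 11.8 TPM) and Sparc (102 TPM) led the glycoproteins. Sdc1 (191 ± 16.2 TPM) and Vcan (115 ± 19.5 TPM), the proteoglycan of loose mesenchyme, followed Gpc3, and Vcan was lowest in control 5. Of 37 collagen genes, 31 had 1 TPM or more in all 5 libraries and 5 at least 100 TPM. Basement membrane Col4a1 was at 119.9, 136, 169.8, 143 and 182 TPM, fibrillar Col3a1 at 147 ± 22.3 TPM and Col1a2 at 135 ± 21.6 TPM, while Col1a1, its partner in type I collagen, was at 53.8, 58.1, 79.2, 42.5 and 90.003 TPM. Col2a1, the main collagen of cartilage, was at 116, 125, 146, 83.1 and 93.2 TPM and Col9a1 at 101, 106, 117, 49.7 and 89.3 TPM, both lowest in control 4. The late cartilage genes Acan (2.36 TPM), Comp (0.880 TPM) and Matn3 (1.98 TPM) were low. Col10a1 of hypertrophic cartilage (0.0613 TPM), Mmp13 (0.0299 TPM) and the tenascin gene Tnxb (0.00637 TPM) were under 0.1 TPM on average. Among enzymes and adhesion genes, Itgb1 (214 TPM), Mmp2 (185 ± 19.6 TPM) and Cdh11 (141 TPM), the cadherin of mesenchyme, were highest.

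Minor cell types differed in summed marker level by orders of magnitude. In bulk tissue, fewer cells of a type and less RNA per cell cannot be told apart, so these sums are not cell shares. Red cell genes summed to 11674, 11701, 13374, 13266 and 12962 TPM in controls 1 to 5. They were mostly embryonic globins, Hbb-y (5797 ± 316 TPM), Hbb-bh1 (1683 ± 219 TPM) and Hba-x (1589 ± 204 TPM), with the near-identical adult alpha globin genes Hba-a2 (2440.4 TPM) and Hba-a1 (507 TPM), between which reads may be split. The adult beta globin genes Hbb-bt (333 TPM) and Hbb-bs (116 TPM), also alike, were lower. The erythroid regulators Klf1 (5.44 TPM) and Gata1 (2.52 TPM) were present at a small fraction of these levels. Of 16 measured genes, all 16 had 1 TPM or more in every library.

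Ectoderm and ridge genes came next, with 647, 559, 683, 900.4 and 758 TPM in controls 1 to 5, highest in control 4 and lowest in control 2. Basal keratins Krt5 (122, 118, 144, 175 and 161 TPM) and Krt14 (79.6, 73.2, 106, 134 and 94.4 TPM) led, followed by the epithelial adhesion genes Epcam (52.7 TPM) and Perp (46.3 TPM). The epidermal master factor Trp63 (12.1 TPM), the ridge factors Sp6 (13.9 TPM) and Sp8 (5.78 TPM) and the ventral factor En1 (7.97 TPM) were lower. Muscle genes summed to 321, 286, 469.9, 411 and 351 TPM. Actc1, the embryonic striated actin, was at 108, 88.6, 171, 147 and 116 TPM in controls 1 to 5, and the differentiation factor Myog (49.7 TPM) exceeded Myod1 (31.6 TPM), Lbx1 of migrating precursors (9.79 TPM), Myf5 (4.25 TPM), Pax3 (1.61 TPM) and Pax7 (0.718 TPM). Control 3 was highest and control 2 lowest in the sum, and 9 of the 20 genes were lowest in control 2, beside 16.1% of all genes at 5 CPM. Of the 20 muscle genes, 14 reached 5 CPM.

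Endothelial genes summed to 273 ± 27 TPM, led by Cdh5 (40.8 TPM), Plvap (31.97 TPM) and Pecam1 (28.4 TPM). Pericyte and smooth muscle genes summed to 196 ± 22.04 TPM, but Pdgfrb (71.04 TPM), Acta2 (60.3 TPM) and Notch3 (52.4 TPM) made up most of it, genes that mesenchyme or muscle also use. The more specific Cspg4 (3.07 TPM), Rgs5 (0.810 TPM) and Kcnj8 (0.0930 TPM) were low. Macrophage genes summed to 127 ± 17.7 TPM, with Pf4 (26.3 TPM), shared with platelets, the complement gene C1qb (14.3 TPM) and the receptor genes Csf1r (5.81 TPM) and Cx3cr1 (5.57 TPM). Platelet and mast cell genes summed to 57.8 ± 8.98 TPM, with Ppbp at 14.4 TPM and the mast cell proteases Mcpt4 and Tpsb2 at 0 counts in all 5. Schwann cell and melanoblast genes summed to 56.3 ± 6.998 TPM, with Sox10 at 2.92 TPM and the pigment cell gene Tyrp1 at 0.0205 TPM. Neuronal genes summed to 33.4 ± 1.63 TPM, mostly Tubb3 (16.4 TPM), and the proneural genes Neurog2 (0.00522 TPM), Neurod1 (0.0273 TPM) and Neurog1 (0.0336 TPM) were nearly absent. Genes of distant organs summed to 2.88, 3.13, 1.91, 2.06 and 5.85 TPM in controls 1 to 5, and 9 of these 16 genes had a mean under 0.1 TPM. The cardiac factor Nkx2-5 and the insulin gene Ins2 had no count, and the highest value, Afp of liver and yolk sac in control 5, was 2.30 TPM against 0.0130 to 0.522 TPM in the others.

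**Figure D3:**
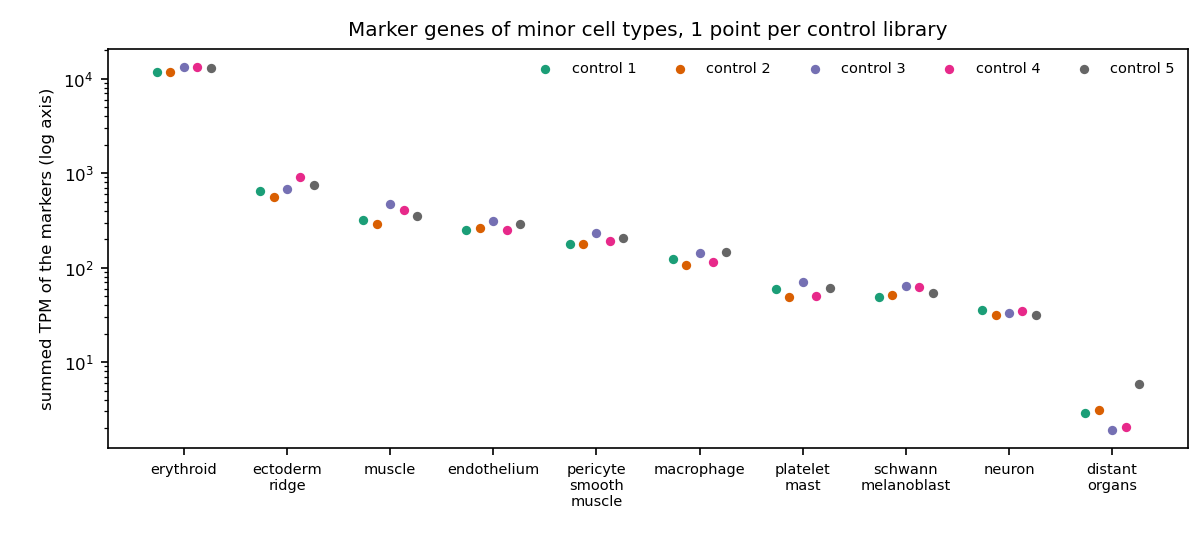
Summed TPM (y axis, log scale) of the markers of each minor cell type, with 1 point per control library. The sums run from about 12596 TPM for red cell genes down to 3.17 TPM for genes of distant organs, and control 4 is the highest for ectoderm and ridge genes and control 3 for muscle genes.

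The 5 buds were alike for most genes and differed in a small set. The spread between libraries was taken as the coefficient of variation (CV) of CPM with its counting part removed, the biological CV, over 11688 genes at 5 CPM or more. Its median was 7.18% and its 90th percentile 16.5%. The common value from edgeR, over genes that passed its filter on low counts without regard to somite number, was 14.4%. At or above 20% lay 717 of the 11688 genes (6.13%), a line chosen after the values were seen. Tal1 lay just inside it at 20.02% and Dtx1 just outside at 19.99%. Among the lists, 18 of 55 mesenchyme regulators at 5 CPM, 9 of 19 skeletal regulators, 13 of 25 ectoderm genes, 8 of 14 muscle genes and 10 of 29 collagens lay at or above the line. At or above it were also 0 of 12 red cell genes, 0 of 13 SET1 and MLL genes, 1 of 21 imprinted genes and 2 of 21 cell cycle genes. In lists of this size such counts lie near the 6.13% of all genes, so they do not set these lists apart. Over all genes at 5 CPM, the highest library was control 1 for 22.3%, control 2 for 10.7%, control 3 for 20.2%, control 4 for 23.5% and control 5 for 23.3%. The lowest library was control 1 for 22.9%, control 2 for 16.1%, control 3 for 26.8%, control 4 for 19.9% and control 5 for 14.3%. Counts of list genes by library are read beside these shares, though they take in list genes under 5 CPM as well. The named genes with the largest spread were Xist (223%), Pax1 (176%), Srcin1 (112%), Pkdcc (86.6%), Mrpl23 (81.7%), Irx3 (81.3%), Gng4 (79.5%), Zbtb38 (75.8%), Mfsd8 (73.4%) and Wt1os (70.4%). Nhej1, Prom2, Mapk8ip2, Irx5, Hoxc5, Fez1, Slc15a2, C1qtnf1, Mrm1 and Vwf followed, from 70.1% down to 60.2%. For 6 of these 20 the value moved by over 1.5 times when 1 library was left out. Xist had 59.1% without control 1, Slc15a2 had 36.97% without control 2 and C1qtnf1 had 27.7% without control 3. Without control 5, Irx3 had 37.5%, Hoxc5 36.8% and Irx5 12.4%, the last under the line.

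**Figure D4:**
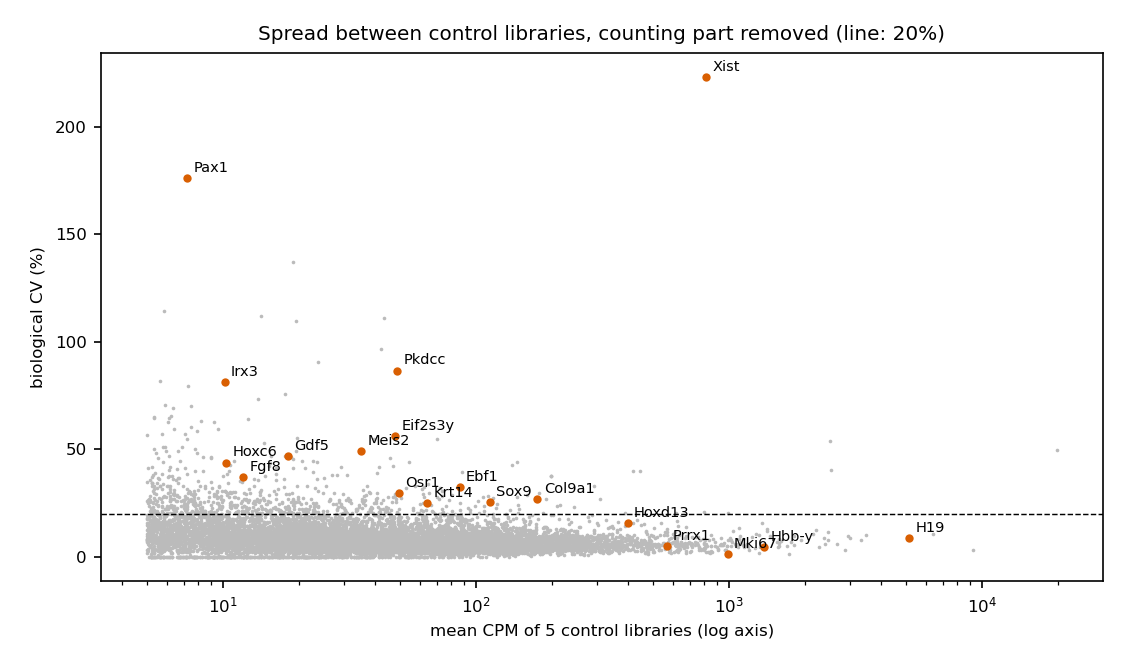
Biological CV in percent (y axis) against mean CPM (x axis, log scale) of 11688 genes in the 5 control libraries, in grey, with selected genes named in orange and a dashed line at 20%. Xist and Pax1 stand far above the rest, and the abundant genes H19, Hbb-y and Prrx1 lie under the line.

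Several genes singled out after their values were seen, among them homeobox genes of the proximal bud, were highest in control 5. Pax1, a paired box factor of the shoulder region and of sclerotome (chromosome 2, 147361925 to 147393295, GRCm38), was at 0.281, 6.12, 0.120, 0.0615 and 29.5 CPM in controls 1 to 5, low in controls 1, 3 and 4, at the limit of 3 counts in control 4, and high in controls 5 and 2. The proximal homeobox genes Irx3, Irx5 and Meis2 were also highest there, and control 2 was next highest for each. Irx3 was at 5.53, 10.3, 5.64, 4.90 and 24.5 CPM, Irx5 at 3.52, 4.59, 3.72, 3.34 and 11.5 CPM and Meis2 at 27.7, 32.2, 22.8, 27.96 and 65.7 CPM. Meis1 was at 15.1, 24.3, 12.7, 18.96 and 34.8 CPM, highest in control 5 and next in control 2. Pkdcc, a secreted kinase needed for long bone growth, was at 27.99, 58.7, 20.8, 18.2 and 119 CPM. Osr1, an odd-skipped factor of connective tissue, was at 39.9, 45.98, 44.5, 41.5 and 75.6 CPM. In both, control 2 was next highest, for Osr1 by little. Of the 10 HoxB genes, 8 were highest in control 5, beside 23.3% of all genes at 5 CPM, a level that only Hoxb3 of the cluster reached on average. Hoxc4 (2.27, 5.96, 2.66, 3.32 and 10.5 CPM), Hoxc5 (3.41, 6.95, 3.82, 3.65 and 12.7 CPM) and Hoxc6 (8.59, 11.8, 6.48, 7.09 and 17.5 CPM) were highest in control 5 and next highest in control 2, while the other 6 of the 9 HoxC genes were highest in control 4. Also highest in control 5 were Tnc (51.1, 58.96, 58.6, 47.9 and 93.4 CPM), Lum (33.6, 42.3, 27.2, 26.98 and 56.05 CPM), Igf1 (14.9, 20.3, 11.9, 8.67 and 25.5 CPM) and Dlk1 (55.9, 58.3, 56.2, 56.97 and 100.2 CPM). Control 2 was again next highest in each, clearly for Lum and Igf1 and by little for Tnc and Dlk1. Among whole lists, control 5 was highest for 17 of 37 collagens, 18 of 32 other ligands, 11 of 19 immediate early and stress genes and 10 of 17 macrophage genes, beside 23.3% of all genes at 5 CPM. That level was reached by 29, 28, 9 and 8 genes of these lists in turn, so the counts and the share cover unlike sets. The macrophage genes summed to 123, 106, 143, 115 and 147 TPM in controls 1 to 5, highest in controls 5 and 3, and their part in the other values was not tested.

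The same library was lowest for some genes of the distal bud, likewise singled out after their values were seen. Of 26 skeletal regulators, 8 were lowest in control 5 (14.3% of all genes) and 7 were highest there (23.3%), so that list did not go one way. Cnmd, which encodes chondromodulin of cartilage, was at 8.74, 9.61, 7.82, 7.28 and 2.47 CPM. Gdf5 was at 15.7, 13.4, 30.7, 22.2 and 8.76 CPM and Sall4, a spalt factor of the distal bud, at 11.9, 11.3, 14.5, 15.6 and 7.14 CPM, both lowest in control 5 and highest in control 3 or 4. Hoxd10, Hoxd11, Hoxd12 and Hoxd13 were each lowest there. Hoxd13 was at 383, 393, 428, 479 and 309 CPM and Hoxd12 at 154, 163, 185, 194 and 118 CPM. At 5 CPM or more were 10978 protein-coding genes. Of these, 25 were at least 1.5-fold higher in control 5 than in any other library and 12 at least 1.5-fold lower. In HoxA, Hoxa11 was also lowest in control 5 but by less, at 118, 115, 114, 109 and 102 CPM, and Hoxa13 was lowest in control 2, at 94.5, 84.99, 113, 114 and 91.1 CPM. Control 5 is the embryo of litter D whose Cre status is marked with a question mark, and how much tissue around the bud was taken is not stated in the labels. The part of genotype, litter or dissection in these values was not tested.

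Control 4, the youngest embryo at 49 somites, was high in ectoderm and ridge genes. Of 29 ectoderm and ridge genes, 22 were highest in control 4, where 23.5% of all genes at 5 CPM were. Fgf8 was at 12, 7.54, 8.50, 18.9 and 13.2 CPM, Sp8 at 9.97, 7.82, 7.80, 14.1 and 9.76 CPM, Sp6 at 20.5, 15.5, 16.2, 28.4 and 19.6 CPM (with 86.7% of its exon bases under genes of the other strand) and Grhl2, a factor of epithelial identity, at 17.5, 13.6, 13.4, 26.3 and 17.8 CPM in controls 1 to 5. The FGF response gene Spry4 was at 40.1, 37.9, 40.9, 61.1 and 41.7 CPM and Msx1 at 132, 115, 160.1, 192 and 134 CPM, with control 4 again highest. Of 26 skeletal regulators, 9 were lowest in control 4 (19.9% of all genes) and 2 highest, and 6 of 9 HoxC genes were highest there (23.5%). Only 3 of the 9 HoxC genes reached the 5 CPM over which that share was taken. Genes low in control 4, singled out after their values were seen, were Nkx3-2 (3.02, 4.20, 3.14, 0.328 and 2.71 CPM), Ebf2 (11.7, 11.9, 15.1, 2.62 and 14.2 CPM) and Ebf1 (84.9, 97.2, 122, 44.4 and 83.7 CPM), the EBF genes encoding helix-loop-helix factors of connective tissue. Col9a1 (190.1, 209, 209, 96.4 and 170.4 CPM), Matn4 (14.1, 25.5, 13.95, 7.65 and 14.9 CPM) and the BMP antagonist gene Chrdl1 (35.6, 28.6, 28.8, 13.5 and 20.97 CPM) were lowest there too. Control 4 was both the only embryo of litter C and the only one at 49 somites, which cannot be told apart. At 1.5-fold, 41 of the 10978 protein-coding genes at 5 CPM were lower in control 4 than in any other library. This was the most of any library on the low side, and 8 genes were higher in control 4. Among imprinted genes, 12 of 22 were lowest in control 4 (19.9% of all genes) and 12 of 22 highest in control 5 (23.3%).

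Control 3 was highest in many muscle genes and in a few genes of vessels. Of 20 muscle genes, 11 were highest there, where 20.2% of all genes at 5 CPM were, with Actc1 at 64.7, 55.95, 98.3, 91.3 and 70.5 CPM and the embryonic myosin gene Myh3 at 42.2, 35.2, 69.9, 61.1 and 38.6 CPM. Notch1 was at 68.9, 63.3, 110.3, 63.6 and 60.9 CPM and its endothelial ligand Dll4 at 5.78, 5.55, 8.996, 5.37 and 5.82 CPM, and Vwf, von Willebrand factor of endothelium, at 5.57, 3.28, 14.5, 9.37 and 4.71 CPM. The sum of all 19 endothelial markers ran from 382 to 445 CPM, a narrower range than these 3 genes. Fgf2 (7.06, 11.4, 25.97, 18.9 and 9.66 CPM), Sox6 (50.7, 38.5, 62.5, 26.4 and 25.6 CPM), Aldh1a2 (39.02, 36.6, 56.4, 29.4 and 28.5 CPM) and Lamb2 (47.9, 64.8, 92.1, 54.3 and 53.8 CPM) were also highest in control 3.

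**Figure D5:**
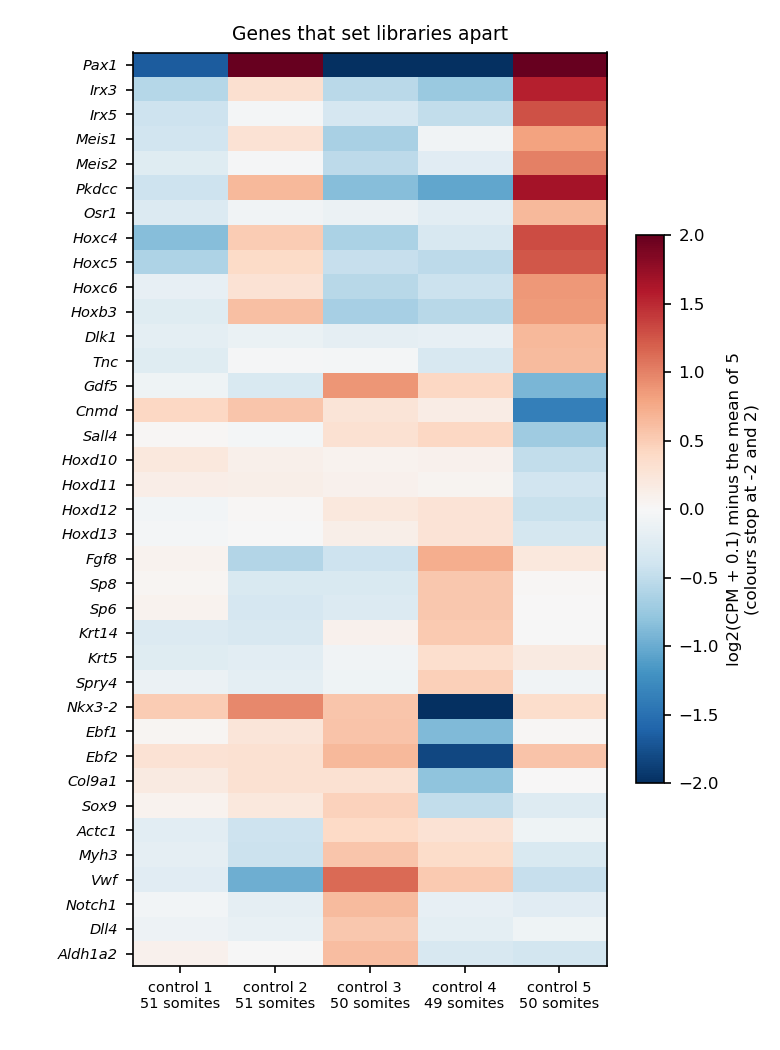
Colour map of log2(CPM + 0.1) minus the mean of the 5 control libraries (columns, with their somite numbers) for genes named in the text (rows), red for above and blue for below the mean. Control 5 is red from Pax1 to Tnc (control 2 also for Pax1) and blue from Gdf5 to Hoxd13, control 4 is red for Fgf8 to Spry4 and blue for Nkx3-2 to Sox9, and control 3 is red from Actc1 to Aldh1a2.

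Sex-linked genes separated control 1. Xist, the RNA that coats the inactive X chromosome, was at 4054, 0.505, 1.44, 1.27 and 0.350 CPM in controls 1 to 5. The Y-linked genes Eif2s3y (0.0647, 63.8, 55.5, 59 and 62.2 CPM), Ddx3y (0.928, 52.3, 52.3, 47.3 and 45.7 CPM) and Kdm5d (2.09, 87.7, 91.2, 77.8 and 91.5 CPM) were low in control 1 and even in the others. Uty was at 13.7, 41.3, 31.9, 25.9 and 22.3 CPM, and its X-linked relative Kdm6a at 98.4, 52.6, 55.8, 52.4 and 51.6 CPM, and whether reads of related exons were shared was not tested. Of the X-linked genes known to stay active on both X chromosomes, Eif2s3x was at 457, 283, 258, 293 and 262 CPM, highest in control 1. Ddx3x (727, 571, 635, 541 and 601 CPM) and Kdm5c (228, 159, 187, 193 and 170.3 CPM) were also highest there, by less. Tsix, antisense to Xist, had a mean of 0.0559 TPM. These values go with 1 female and 4 male embryos, and controls 1 and 2 differed in them within 1 litter and 1 somite number. Control 1 was also the only library with a stated Prx1Cre, so sex and genotype cannot be told apart for its other genes, and no value above was adjusted for sex.

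The labels give a somite number for each embryo, so the slope of expression per somite was tested over the 5 controls. With edgeR's quasi-likelihood test and Benjamini-Hochberg adjustment over 20971 genes, 0 rose (0% of genes tested) and 0 fell (0%), and the smallest adjusted p was 0.390. At an unadjusted p under 0.05 there were 1465 genes (6.99%), and DESeq2 called 49 rising and 49 falling after adjustment. Only control 4 had 49 somites and only controls 1 and 2, litter mates, had 51, so the slope cannot be told apart from those litters. The smallest p-values of rising genes belonged to Rpl30-ps9, a pseudogene whose reads may come from near-identical copies, and Gm26699 (99.7% under genes of the other strand), which had no count in controls 3, 4 and 5. They reached 1.77 and 1.49 CPM, and 1.01 and 1.05 CPM, in controls 1 and 2. Shisa6, a receptor-associated membrane protein, was at 11.3, 9.24, 2.52, 0.226 and 0.679 CPM in controls 1 to 5, high in the litter of controls 1 and 2, with a log2 slope of 2.71 per somite (SE 0.34, edgeR adjusted p = 0.426). Falling genes of smallest p were Krt14 (52.01, 50.3, 66.3, 90.1 and 62.4 CPM), with a log2 slope of -0.40 per somite (SE 0.05, edgeR adjusted p = 0.390), the WNT receptor gene Fzd10 (54.5, 58.2, 67.4, 89.2 and 74.7 CPM) and the fatty acid synthase gene Fasn (309, 319, 371, 459 and 367 CPM). Of 29 ectoderm and ridge genes, 19 had an unadjusted edgeR p under 0.05, beside 6.99% of all genes, and 26 had a negative slope, beside 48.6%. As 22 of the 29 were highest in control 4, the only embryo at 49 somites, these counts largely restate that library. The genes are not separate observations of a trend. None of the 29 passed the adjusted test. The list's median log2 slope was -0.26 per somite beside 0.00 over all genes.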

How the data were processed

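RNA-seq libraries of 5 control forelimb buds (RNA purified by column, TruSeq kit, per the labels' protocols) were used. The first deposited table holds estimated counts per gene, and the second holds a signal, which is the rounded count divided by 1 factor per library, tested on the deposited values (100% of values above 0 within 0.01). Salmon 0.8.2, R 3.4.1, DESeq2 1.16.1 and mm10 are named in the submitters' processing notes, with no word on how transcripts were summed or whether strand was used. Symbols, biotypes and exon lengths came from GENCODE M21 (GRCm38) for 47310 of 47729 gene IDs, and the 419 others held 0.158% to 0.196% of counts.

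TPM was computed here from the estimated counts over merged exon length, scaled to the same total in each library. For CPM and tests the counts were rounded to whole numbers and scaled by TMM in edgeR 4.0.16 (R 4.3.3). The biological CV is the CV of CPM over 5 libraries with its Poisson part removed, for genes at a mean of 5 CPM or more. The somite slope was fitted with edgeR's quasi-likelihood test after filterByExpr (minimum count 10, total 15), with Benjamini-Hochberg adjustment over all genes tested, and DESeq2 1.42.0 as an alternative. On simulated counts for 20537 genes the slope test recovered 52%, 76%, 98% and 100% of genes with log2 slopes of 0.5, 1, 2 and 3 per somite, with 11 false calls. The simulation gave genes of like level the same spread and held no litter effect. Its shares therefore do not give the recovery in the real libraries. The libraries held 44170158 to 49001179 counts. Intervals of 3 counts cover counting error only. Each library is 1 embryo, so p-values rest on the spread between embryos, with the litter mates controls 1 and 2 treated as independent.

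Genes were named by rule: the highest in all and per list, the listed Hox genes, the 20 with the largest biological CV without unnamed models and up to 3 per list, the 3 of smallest slope p in each direction, and the sex-linked list. Other genes named in the paragraphs on single libraries were chosen after their values were seen. The members and lists were chosen with earlier results of these data known. Alternatives were gene length, library total, scaling, filters, the second table, DESeq2 and leaving out each control. The other 5 libraries were not analysed here, and 1 gene is not reported here.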

Additional observations from a re-analysis of the deposited data

Results flagged for a closer look

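For 334 values (CPM of the named genes, summed CPM of the lists and library facts), the library farthest from its neighbour was compared with the spread of the 5. In 42 of them that gap, as a share of the range, passed Dixon's critical value of 0.71 for 5 samples. Chance flags about 1 in 20 groups, and many of these genes were named because they vary. Where all other libraries were at 0, as for Wnt1 and Neurog2, the gap is the whole range at any value, so that flag says nothing.

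Control 5 was the highest library in 14 of the 42 and the lowest in 3. It was highest for Pax1 (29.5 CPM, others at 0.0615 to 6.12), Irx3 (24.5 CPM), Irx5 (11.5 CPM), Meis2 (65.7 CPM), Osr1 (75.6 CPM), Dlk1 (100.2 CPM) and Tnc (93.4 CPM). The same held for Hoxb2 (7.86 CPM), Hoxb6 (1.14 CPM), Hoxb7 (1.40 CPM), Hoxb8 (1.49 CPM), the muscle progenitor factor gene Pax7 (3.17 CPM), Igfbp2 (117.9 CPM) and Afp (2.91 CPM). It was lowest for Hoxd10 (62.7 CPM, others at 92.4 to 101.9), Hoxd11 (91.8 CPM, others at 124.0 to 132.0) and the WNT antagonist gene Frzb (62.2 CPM, others at 81.5 to 85.9).

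Control 4 was highest for the FGF response genes Spry4 (61.1 CPM, others at 37.9 to 41.7) and Etv4 (68.1 CPM, others at 47.0 to 50.6) and for Tyrp1 (0.0820 CPM, about 4 counts). It was lowest for Ebf2 (2.62 CPM, others at 11.7 to 15.1), Pdgfra (405 CPM, others at 492 to 517), Mfap4 (136 CPM) and Gata1 (1.93 CPM).

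Control 3 was highest for Notch1 (110.3 CPM, others at 60.9 to 68.9), Dll4 (8.996 CPM, others at 5.37 to 5.82), Vegfa (82.6 CPM), Wnt1 (0.0400 CPM, under the limit of 3 counts, others at 0) and the summed SET1 and MLL complex genes (1922 CPM, others at 1713 to 1769). It was lowest for the imprinted gene Nnat (592 CPM, others at 652 to 675).

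Control 1 was set apart by sex-linked genes. It was highest for Xist (4054 CPM), Eif2s3x (457 CPM) and Kdm6a (98.4 CPM), and lowest for Ddx3y (0.928 CPM), Eif2s3y (0.0647 CPM) and Kdm5d (2.09 CPM). It was also highest for the ridge ligand gene Fgf4 (0.971 CPM, others at 0.115 to 0.328) and for Fgf22 (0.151 CPM), and lowest for Igfbp4 (611 CPM, others at 704 to 719). Control 2 was highest for the ribosomal RNA entry CT010467.1 (37362 CPM, others at 14006 to 16478), for the share of ribosomal RNA (3.69%) and for Neurog2 (0.0229 CPM, 1 count).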

How the results depend on the processing

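The share of TPM held by the 100 highest genes, 35.2%, was 31.6% with the longest transcript as gene length, 21.8% with the median transcript length and 24.3% over nuclear protein-coding genes only, the last chosen after seeing the data. It ran from 34.4% to 35.6% when 1 control was left out. The number of detected genes, 15346, ran from 15117 (longest transcript) to 19030 (any library), and from 15440 to 15635 without 1 control. Genes with a biological CV of 20% or more numbered 717, 2042 of 15379 from a mean of 1 CPM, and 638 to 796 without 1 control. The common biological CV of 14.4% was 17.01% with no filter on low counts and 13.97% to 14.9% without 1 control. For the somite slope, DESeq2 called 98 genes and edgeR with no filter 4 (3 rising, 1 falling). Without 1 control edgeR called 0 or 1 gene, the 1 falling gene being called without control 4, which leaves 50 and 51 somites only. No named slope changed sign under the alternatives run, though only 4 of the 6 were fitted without control 1 or without control 2. Of the 6 named slopes, 4 had an adjusted p under 0.05 with DESeq2 and 3 with edgeR and no filter, so their calls depend on the method. Among 292 named genes above 0, TPM moved by over 1.5 times for 202 with the median transcript length and 10 with the longest, so ranks between genes depend on the gene length used. Scaling to nuclear protein-coding genes alone raised all 283 named genes of that class by over 1.5 times (median ratio 1.59), which bears on lines set at 1, 10 or 100 TPM. No paired analysis was possible because only the control group was used. Depth limits genes at a few counts, and 5 embryos of 4 litters limit what can be said of somite number.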
